A study of Mus musculus with 10 samples.

Results

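Inka2 (Entrez gene 109050) and Prr5l (Entrez gene 72446) were followed through embryonic mouse brains that lack the ubiquitin ligase COP1 and, step by step, its substrates. These 2 genes, of 28059 gene identifiers measured, were chosen by their transcript counts, because these were higher in COP1 knockout than in control brains, so that difference is given here as a description and not as a finding. In every library Inka2 was the more abundant transcript. Inka2 stayed above control in each genotype without COP1. Prr5l was high in the COP1 knockout and at most 1.21-fold above control, by group, wherever cJun had been deleted as well. These levels against control share the libraries that chose the genes, so they are descriptions too, and the difference between both genes was not tested.

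The libraries came from E18.5 (late embryonic) brains without olfactory bulbs, and each of 5 genotypes had 2 of them. QKO brains lacked COP1, cJun, ETV1 and ETV5. TKO brains lacked COP1, cJun and ETV1, DKO brains lacked COP1 and cJun, KO brains lacked COP1 alone, and control brains were heterozygous for COP1, so that the controls also carried a deleted COP1 allele. The way each allele was deleted, the cells in which it was deleted, the strain and the litters are not stated in the labels. The labels do not say that libraries of a genotype came from separate embryos or litters, so p-values measure the spread between these libraries, which may be technical in QKO, TKO and KO.

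Library totals ran from 31996944 to 54594523 counts. Jun, the gene of cJun, was at 2.05 and 1.44 nRPKM in QKO, 1.60 and 1.48 in TKO, 2.94 and 1.61 in DKO, 16.1 and 15.3 in KO, and 14.99 and 15.0 in control, as the labels say; nRPKM is the authors' RPKM, a level per transcript length, after their further scaling for library size. Cop1 was at 3.998 ± 0.228 nRPKM in KO and 4.87 ± 0.184 in control (SD, n = 2 each). Its log2 fold change in KO vs control, -0.28 ± 0.09 (SE from edgeR), did not pass (edgeR adjusted p = 0.270). Etv1, which the labels give as deleted in QKO and TKO, averaged 4.54 nRPKM in QKO and 3.74 in TKO, above its 2.04 in DKO, and Etv5, given as deleted in QKO, averaged 4.04 nRPKM in QKO and 3.84 in TKO. Counts over a whole gene do not show the loss of an exon, so all directions for TKO and QKO rest on the labels. Xist, a marker of female cells, was at 1464 and 1840 CPM (each count as a share of its library, on one scale) in DKO replicate 1 and control replicate 1 and at most 1.94 in each of the other libraries, so the DKO libraries differ from each other in this marker, as do the control libraries, and neither pair is a repeat of 1 embryo. Neuronal markers had a summed level of 1286 to 1507 nRPKM over 8 genes.

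COP1 is the substrate receptor of an E3 ubiquitin ligase, and it marks cJun, an AP-1 factor, and the related ETS proteins ETV1, ETV4 and ETV5 for degradation. Inka2, formerly Fam212b, encodes a relative of Inka1 that binds and inhibits the p21-activated kinase Pak4, an effector of the GTPase Cdc42 in the control of actin. Prr5l, also called Protor-2, encodes a Rictor-binding protein of mTOR complex 2, the mTOR complex that phosphorylates AKT, SGK and protein kinase C enzymes, and in cultured cells it has been tied to mRNA decay by tristetraprolin (Zfp36).

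Because both transcripts were chosen for the same change, the promoters at their outermost annotated starts are shown, each with 250 bases before and 50 bases after the start, read 5′ to 3′ on the gene's strand (RefSeq, GRCm38.p6). Inka2 lies on chromosome 3 (chr3:105704349-105704648, plus strand) and Prr5l on chromosome 2 (chr2:101882978-101883277, minus strand). Capitals mark GGAA, the core that ETS factors share, or its reverse complement TTCC.
Inka2: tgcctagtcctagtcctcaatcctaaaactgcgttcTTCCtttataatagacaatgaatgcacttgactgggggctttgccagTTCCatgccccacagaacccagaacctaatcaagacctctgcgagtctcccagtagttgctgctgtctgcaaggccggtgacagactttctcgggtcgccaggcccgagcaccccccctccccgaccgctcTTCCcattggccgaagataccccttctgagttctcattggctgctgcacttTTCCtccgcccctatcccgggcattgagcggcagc
Prr5l: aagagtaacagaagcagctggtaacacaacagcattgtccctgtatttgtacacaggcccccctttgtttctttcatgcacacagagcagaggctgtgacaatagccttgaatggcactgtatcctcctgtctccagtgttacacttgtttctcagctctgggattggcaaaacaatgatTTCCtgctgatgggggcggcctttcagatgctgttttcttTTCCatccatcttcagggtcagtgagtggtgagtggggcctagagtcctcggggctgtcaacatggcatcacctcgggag
The Inka2 promoter held 4 GGAA cores and that of Prr5l held 2. A second annotated Inka2 start held 0 of them, and the other Prr5l starts held 3 and 5. Over all 32851 RefSeq promoters of this length, 95.98% held at least 1 GGAA core on either strand, with a median of 3. The AP-1 letters TGANTCA were in 0 of the 5 promoters of Inka2 and Prr5l and in 7.81% of all promoters. The related letters TGACGTCA were in 0 of the 5 and in 1.79% of all. The longer ETS letters CCGGAA, which contain the GGAA core, were in 0 of the 5 and in 14.9% of all, counted on both strands. These windows hold only the bases next to the annotated starts, and which start is used in these brains was not measured.

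Inka2, the Pak4 inhibitor gene, lay between its control and KO levels in DKO, TKO and QKO. It was at 7.34 and 5.91 nRPKM in QKO, 8.44 and 10.2 in TKO, 8.60 and 9.87 in DKO, 11.4 and 11.4 in KO, and 4.58 and 4.82 in control. The KO libraries were the highest of the series and the control libraries the lowest. TKO and DKO overlapped, and their means, 9.32 ± 1.24 nRPKM in TKO and 9.23 ± 0.899 in DKO (SD, n = 2 each), differed by less than their spread. QKO, at 6.62 ± 1.01 nRPKM, overlapped neither with TKO nor with control (4.70 ± 0.174). KO and control libraries chose the gene, and how many of all genes separate in these ways was not counted. These orders are therefore descriptions only. These levels rested on 1277 to 3246 counts in the libraries without COP1 and on 1028 and 1091 in control.

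Prr5l, the mTORC2 subunit gene, separated KO from the rest. It was at 0.811 and 0.752 nRPKM in QKO, 0.949 and 0.883 in TKO, 0.956 and 0.927 in DKO, 1.63 and 1.76 in KO, and 0.775 and 0.789 in control. Both KO libraries stood well above the other 8. DKO (0.941 ± 0.0210 nRPKM) and TKO (0.916 ± 0.0468) overlapped with each other and lay above both control libraries. QKO (0.781 ± 0.0421) and control (0.782 ± 0.00960) overlapped. As for Inka2, KO and control libraries chose the gene and the share of all genes that separate so was not counted. Prr5l had only 143 to 217 counts per library outside KO, against 433 and 337 in KO, so that its small differences carry more counting error than those of Inka2.

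**Figure D1:**
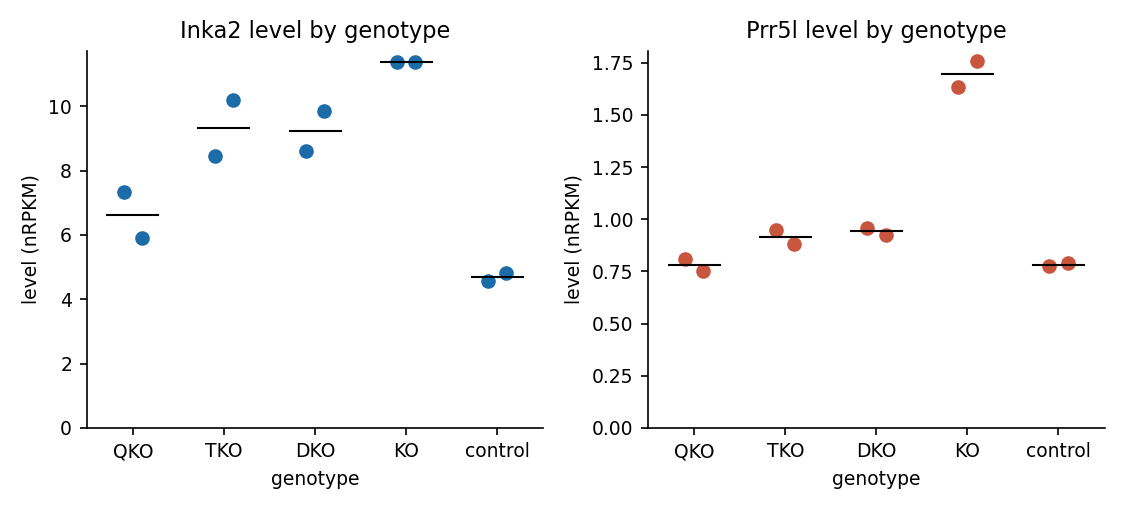
Level of Inka2 (left) and Prr5l (right) in nRPKM for each library by genotype; points are libraries and bars are means of 2. Inka2 lay between 5.91 and 11.4 nRPKM in all libraries without COP1 and at 4.58 and 4.82 in control, whereas Prr5l passed 1 nRPKM in KO only.

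Per length of transcript, Inka2 was above 47.9 to 63.4% of the 18671 genes tested in the libraries without COP1, and above 42.2 to 43.3% in control. Prr5l was above 17.9 to 27.0% of them without COP1 and above 18.6% in control. The nRPKM of Inka2 divided by that of Prr5l was 9.05 and 7.86 in QKO, 8.90 and 11.5 in TKO, 8.99 and 10.7 in DKO, 6.97 and 6.48 in KO, and 5.90 and 6.11 in control. This ratio was higher in all libraries without cJun than in any library with it, and no test was made of it because the KO and control libraries chose both genes.

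The comparison of KO with control asked which transcripts move when COP1 is lost, and it is the one that chose the pair. Inka2 was 2.44-fold higher in KO (log2 fold change 1.29 ± 0.12, SE from edgeR), and Prr5l was 2.18-fold higher (1.12 ± 0.12). In that comparison edgeR called 0.734% of all genes, and 0.503% as higher. Leaving out any 1 of the 4 libraries kept Inka2 between 1.24 and 1.31 and Prr5l between 1.06 and 1.17 on the log2 scale. Neither gene overlapped between KO and control, which the choice of the genes fixed.

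The next steps asked how the pair stood once the substrates were removed too. Against control, Inka2 was 0.98 ± 0.12 higher on the log2 scale in DKO, 0.99 ± 0.12 in TKO and 0.50 ± 0.12 in QKO. Prr5l was 0.27 ± 0.12 higher than control in DKO and 0.24 ± 0.12 in TKO, and stood at -0.00 ± 0.12 in QKO. These comparisons share the control libraries that chose the genes, so no p is given. Against KO, whose libraries also chose the genes, the log2 fold change of Inka2 was -0.31 ± 0.11 in DKO, -0.29 ± 0.11 in TKO and -0.79 ± 0.11 in QKO. Single libraries moved those of DKO and TKO: without DKO replicate 1 the Inka2 value in DKO vs KO was -0.20 (-0.21 without both libraries with high Xist), and without TKO replicate 1 that in TKO vs KO was -0.16. That of Prr5l was -0.85 ± 0.12 in DKO, -0.89 ± 0.12 in TKO and -1.13 ± 0.12 in QKO.

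Set against the difference in nRPKM between the KO and control means, Inka2 kept 58.3 and 77.3% of it in the DKO libraries, 56.0 and 82.1% in TKO, and 39.5 and 18.1% in QKO. Prr5l kept 19.1 and 15.8% in DKO, 18.3 and 11.0% in TKO, and 3.19 and -3.33% in QKO. The Inka2 shares lay above the Prr5l shares in each of these libraries. The difference between KO and control that divides them is the one that chose both genes, so the shares are descriptions only. The difference between both genes was not tested.

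The rise that chose the genes was between KO and control. Steps among DKO, TKO and QKO were therefore tested with edgeR's quasi-likelihood test, adjusted over all 18671 genes. The spread behind each p still came from all 10 libraries, including the KO and control libraries that chose the genes. For Inka2 the SD (n = 2 each) was 0.00622 nRPKM in KO and 0.174 in control. It was 0.899 in DKO, 1.24 in TKO and 1.01 in QKO. The effect of this on the p-values was not tested. TKO vs DKO asked what the further loss of ETV1, as labelled, does. Inka2 differed by 0.02 ± 0.11 on the log2 scale (95% interval -0.23 to 0.27, edgeR adjusted p = 0.964) and Prr5l by -0.04 ± 0.12 (-0.30 to 0.23, edgeR adjusted p = 0.922), so neither passed, in a comparison where 0.0911% of all genes were called. The intervals leave room for changes of up to about 0.3 either way.

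QKO vs TKO asked what the further loss of ETV5, as labelled, does. Inka2 was at 7.34 and 5.91 nRPKM in QKO, against 8.44 and 10.2 in TKO, with no overlap. Its log2 fold change of -0.50 ± 0.11 (95% interval -0.75 to -0.25) had an unadjusted edgeR p of 0.00112 and did not pass after adjustment (edgeR adjusted p = 0.167). DESeq2 (-0.49, DESeq2 adjusted p = 0.0106) and edgeR without the filter on low counts (-0.50, edgeR adjusted p = 0.0119) did call it. Prr5l had -0.24 ± 0.12 (-0.51 to 0.03) and did not pass (edgeR adjusted p = 0.938), and its libraries did not overlap either. How many of all genes separate in this way was not counted, so the lack of overlap is a description only. edgeR called 0.289% of all genes in this comparison, and neither gene of the pair.

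QKO vs DKO spans the labelled loss of ETV1 and ETV5 together. Inka2 had a log2 fold change of -0.48 ± 0.11 (95% interval -0.73 to -0.23, edgeR adjusted p = 0.113), which DESeq2 (-0.48, DESeq2 adjusted p = 0.00999) and the unfiltered edgeR fit (-0.48, edgeR adjusted p = 0.00905) called and the edgeR fit with the filter did not. Prr5l had -0.27 ± 0.12 (-0.54 to -0.01, edgeR adjusted p = 0.470), and no tool called it. In this comparison 0.696% of all genes were called. Both QKO libraries lay below both DKO libraries for each gene, a separation whose share over all genes was not counted.

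**Figure D2:**
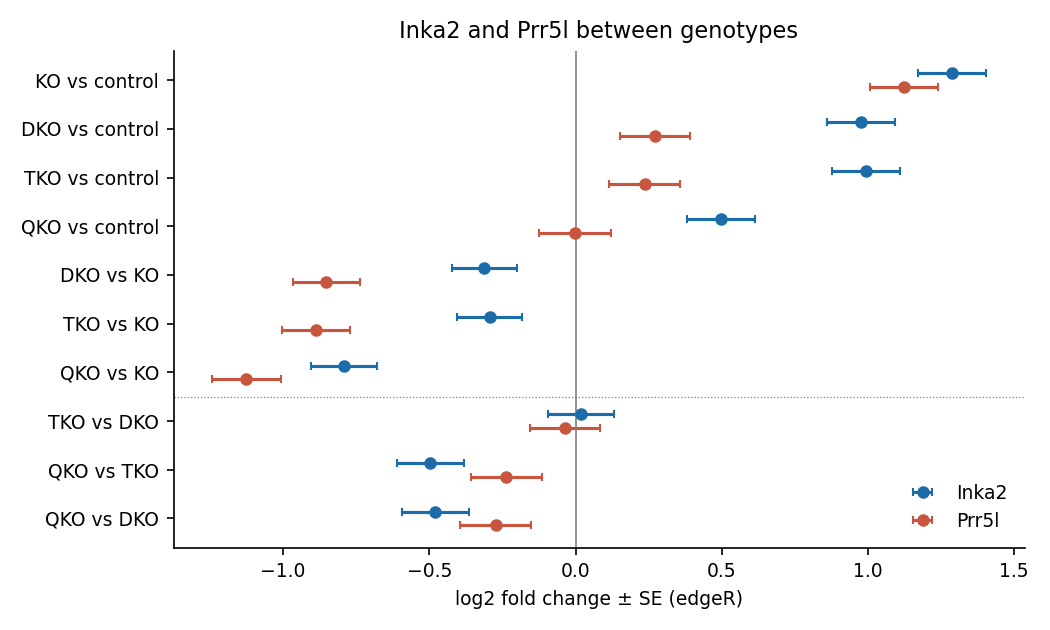
Log2 fold change (edgeR, ± SE) of Inka2 and Prr5l in each comparison of genotypes; those above the dotted line use KO or control libraries, which chose the genes, and those below it do not. Inka2 stood at 0.98 in DKO vs control, where Prr5l was at 0.27, and both were near 0 in TKO vs DKO.

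Glial markers moved in the same libraries. In whole brain, fewer cells of a type and less RNA per cell cannot be told apart. The summed level of 10 oligodendrocyte precursor (OPC) markers was 202 and 180.3 nRPKM in QKO, 266 and 263 in TKO, 259 and 271 in DKO, 353 and 330.01 in KO, and 204 and 219 in control. Of these 10, edgeR called 6 higher and 0 lower in KO vs control (Olig1, Olig2, Sox10, Pdgfra, Cspg4 and Bcan), where 0.503% of all genes were called higher. It called 0 of them in DKO vs KO and 0 in TKO vs DKO, where 0.568% and 0.0911% of all genes were called. It called 3 lower in QKO vs TKO (Olig2, Pdgfra and Bcan) and 4 lower in QKO vs DKO (the same and Olig1), beside 0.289% and 0.696% of all genes in either direction. The 8 astrocyte markers summed to 183 and 166 nRPKM in QKO, 205 and 212 in TKO, 203 and 218 in DKO, 254 and 238 in KO, and 200.4 and 195 in control. Of the astrocyte markers 4 were called higher in KO vs control (Gfap, Aldh1l1, Fgfr3 and Slc1a3) and 2 lower in DKO vs KO (Gfap and Aldh1l1). In TKO vs DKO 0 were called, in QKO vs TKO 1 was lower (Aqp4) and in QKO vs DKO 2 were lower (Fgfr3 and Slc1a3). The shares of all genes called in each comparison are those given beside the OPC markers. None of the OPC or astrocyte markers was at 0 counts throughout. Mature oligodendrocyte markers summed to 30.2 to 36.1 nRPKM in every group, with 0 of 7 called in any of the 5 comparisons whose calls are used here. With so small a share of all genes called, a count of 0 among 7 is no result about them. The part of these markers in the levels of Inka2 and Prr5l was not tested.

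Per 100 nRPKM of OPC markers, a ratio chosen after the values were seen, Inka2 stood at 3.64 and 3.28 in QKO, 3.17 and 3.87 in TKO, 3.32 and 3.65 in DKO, 3.22 and 3.45 in KO, and 2.24 and 2.20 in control. On that scale all 8 libraries without COP1 lay above both controls and the 4 genotypes without COP1 overlapped with each other. Prr5l stood at 0.403 and 0.417 in QKO, 0.356 and 0.335 in TKO, 0.369 and 0.343 in DKO, 0.462 and 0.533 in KO, and 0.379 and 0.360 in control, so that KO alone lay above all others. Per 100 nRPKM of astrocyte markers, Inka2 was between 3.56 and 4.82 without COP1 and at 2.28 and 2.48 in control. Prr5l was at 0.642 and 0.737 in KO, and between 0.387 and 0.472 in the remaining libraries. The KO and control libraries chose both genes, so these ratios are descriptions only. How many of all genes separate in these ways was not counted.

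**Figure D3:**
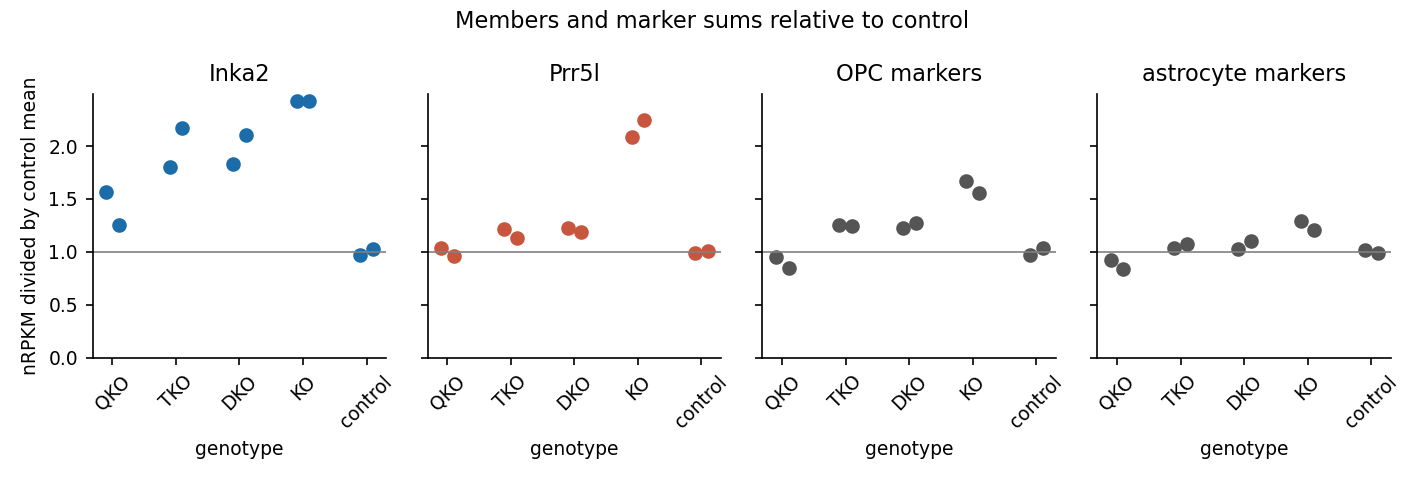
Inka2, Prr5l, and the summed OPC and astrocyte markers in each library, divided by the control mean of nRPKM (line at 1); points are libraries. Inka2 was at 7.34 and 5.91 nRPKM in QKO and 4.58 and 4.82 in control. The OPC sum was 202 and 180.3 nRPKM in QKO and 204 and 219 in control. Control libraries chose Inka2, and no link between these levels was tested.

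Other markers moved as well. HOX genes of the caudal hindbrain summed to 1.76 and 0.737 nRPKM in KO and to 13.4 and 18.3 in control, with 6 of 11 called lower, beside 0.734% of all genes called in either direction. They summed to 1.87 and 3.69 nRPKM in DKO, 8.13 and 6.11 in TKO, and 13.7 and 2.20 in QKO. Erythroid markers summed to 413 to 518 nRPKM in DKO and to 137 to 279 in the other groups. Of 4 tested, 3 were called higher in DKO vs KO (Hba-a1, Hba-a2 and Alas2). In each of TKO vs DKO and QKO vs DKO 1 was called lower (Hba-a1). Of all genes, 0.568%, 0.0911% and 0.696% were called in either direction in these comparisons, in the same order. Radial glia markers summed to 913 and 926 nRPKM in KO and 893 and 945 in control. Of these 9, Vim and Nes were called higher in KO vs control, beside 0.503% of all genes called higher. The 9 markers summed to 810.01 and 815 nRPKM in DKO. Of them 3 were called lower in DKO vs KO (Vim, Nes and Tnc), beside 0.568% of all genes called in either direction. In the other 3 comparisons 0 were called. Microglial, endothelial, meningeal and choroid plexus markers had 0 calls in the 5 comparisons. With between 0.0911% and 0.734% of all genes called, a count of 0 among so few markers is no result about them. The part of these in the results was not tested.

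The 5 lists around both proteins hold 59 genes, of which 58 passed the filter on low counts. edgeR called 0 of the 58 in each of the 5 comparisons, and DESeq2 also called 0; edgeR called between 0.0911% and 0.734% of all genes in these comparisons. An unadjusted p under 0.05 was found for 8 of the 58 in KO vs control (13.8%, beside 10.4% of all genes) and for 11 in DKO vs KO (18.97%, beside 13.8%). It was found for 4 in TKO vs DKO (6.90%, beside 11.9%), 4 in QKO vs TKO (6.90%, beside 5.78%) and 5 in QKO vs DKO (8.62%, beside 10.4%), so the list lay above all genes in 3 comparisons and below them in the other two, with no test of the difference. In KO vs control the 22 genes of p21-activated kinases and their partners had a median log2 fold change of -0.02 and ran from -0.25 to 0.22, beside a median of 0.01 over all genes. The 8 mTORC2 genes had a median of 0.04 and ran from -0.08 to 0.49. The 8 genes of AU-rich mRNA decay had a median of 0.09 and ran from -0.07 to 0.34. In DKO vs KO, where edgeR called 0.568% of all genes, the medians were 0.05 for the kinase list, -0.07 for mTORC2 and -0.17 for mRNA decay, beside -0.00 over all genes. In the same order the lists ran from -0.21 to 0.21, from -0.30 to 0.12 and from -0.34 to 0.05.

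Paralogs and direct partners of both proteins were measured too, and none passed in KO vs control. Inka1, the paralog of Inka2, was at 2.97 and 2.51 nRPKM in KO and 2.62 and 2.49 in control, a log2 fold change of 0.12 ± 0.19 (95% interval -0.29 to 0.53). Prr5, the paralog of Prr5l and also a Rictor-binding subunit, was at 7.44 and 7.51 nRPKM in KO and 7.51 and 7.74 in control (-0.02 ± 0.08, interval -0.20 to 0.16). Prr5 was thus the more abundant of these mTORC2 paralogs in every library. Pak4, the kinase that Inka2 inhibits, was at 7.19 and 6.30 nRPKM in KO and 5.57 and 6.12 in control (0.22 ± 0.12), and did not pass (edgeR adjusted p = 0.551). Rictor, the scaffold that Prr5l binds, was at 0.17 ± 0.12 and Mtor at 0.02 ± 0.09 on the log2 scale. Mapkap1 (-0.06 ± 0.07), Mlst8 (-0.08 ± 0.08) and Zfp36 (-0.07 ± 0.14) did not pass either.

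**Figure D4:**
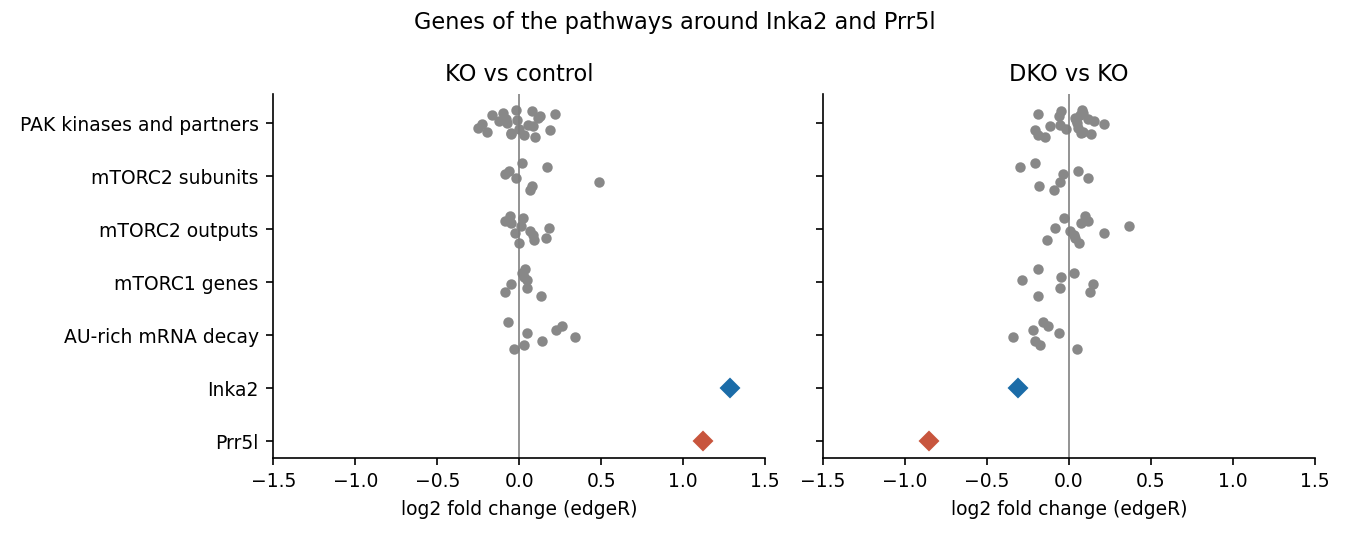
Log2 fold change (edgeR) of each tested gene in the 5 pathway lists (grey points) and of Inka2 and Prr5l (diamonds), in KO vs control (left) and DKO vs KO (right). The kinase list ran from -0.25 to 0.22 and the mTORC2 subunits from -0.08 to 0.49 in KO vs control. Inka2 and Prr5l, which this comparison chose, were at 1.29 and 1.12.

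Neither gene shares a chromosome with a targeted locus: Cop1 is on chromosome 1, Jun on 4, Etv1 on 12 and Etv5 on 16. RefSeq lists 0 genes that overlap either of them. The 3 nearest tested genes on each side of Inka2 (Kcnd3os, Kcnd3, Ddx20, Rap1a, Adora3 and Atp5pb) ran from -0.10 to 0.40 in KO vs control, and those of Prr5l (Iftap, Rag1, Traf6, Commd9, Ldlrad3 and Trim44) from -0.15 to 0.16. edgeR called 0 of these 12 in any of the 5 comparisons, and with between 0.0911% and 0.734% of all genes called, a count of 0 among 12 is no result about them. Kcnd3os, an antisense transcript of the potassium channel gene Kcnd3, was the highest of them in KO vs control (0.40 ± 0.15, edgeR adjusted p = 0.384), and without a stated handling of strand its reads cannot be told apart from those of Kcnd3.

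Transcripts of the ETS substrates were lowest in the KO libraries or shared the lowest level with DKO. Etv4 was at 3.83 and 3.88 nRPKM in QKO, 2.09 and 2.29 in TKO, 1.59 and 1.81 in DKO, 1.18 and 1.20 in KO, and 5.15 and 6.08 in control. It fell in KO vs control (-2.22 ± 0.12, edgeR adjusted p = 6.38e-06) and rose in QKO vs TKO (0.81 ± 0.12, edgeR adjusted p = 0.0171), the step in which Inka2 stood at -0.50. Etv1 rose in TKO vs DKO (0.88 ± 0.12, edgeR adjusted p = 0.0159), a step in which neither Inka2 nor Prr5l passed. Etv5 fell in KO vs control (-1.38 ± 0.08, edgeR adjusted p = 9.35e-06) and did not pass in QKO vs TKO (0.07 ± 0.08).

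As a description over the 10 libraries, which share the depth and genotype differences above, the genes most like Inka2 were Rhoq, a small GTPase gene (Pearson r = 0.974 of log2 CPM), Ppp1r3c, a glycogen-targeting phosphatase subunit gene (0.955), Swap70 (0.955), Fam151a (0.952) and Acot11 (0.949). Rhoq averaged 11.3 nRPKM in QKO, 13.8 in TKO, 13.5 in DKO, 15.6 in KO and 10.1 in control. Those most like Prr5l were Sall3, a zinc finger factor gene (0.977), Prokr1, a prokineticin receptor gene (0.974), the pseudogene Gm8290 (0.971), Sipa1l1 (0.966) and Dennd2a (0.950). Prokr1 averaged 0.892 nRPKM in QKO, 1.07 in TKO, 1.07 in DKO, 2.61 in KO and 0.956 in control. Sall3 averaged 4.38 nRPKM in QKO, 5.28 in TKO, 5.23 in DKO, 8.25 in KO and 4.91 in control. Prr5l ranked 333rd of 18670 genes in likeness to Inka2, and Inka2 ranked 415th in likeness to Prr5l (r = 0.746 for the pair).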

How the data were processed

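Polyadenylated brain RNA was sequenced in 10 libraries as 75 bp paired ends from 1 microgram of RNA, per the labels' protocols. The authors aligned reads with GSNAP to NCBIM37, per the submitters' processing notes. The deposited counts are reads aligned uniquely to a gene model, and the deposited nRPKM is their RPKM with a size-factor adjustment, per the file headers. The labels and headers state neither the annotation release nor the handling of strand. RefSeq (GRCm38.p6) named 24998 of 28059 identifiers and gave gene order and promoters; since the builds differ, only the promoter windows carry coordinates. The list symbol Pak5 was matched as Pak7, and 1 of 76 marker symbols was not matched.

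Counts were tested with edgeR 4.0.16 (R 4.3.3) by its quasi-likelihood test on 5 group means over all libraries, with TMM and filterByExpr, which set 9388 genes aside, at a Benjamini-Hochberg adjusted p under 0.05. Both genes passed the filter. DESeq2 1.42.0, other scaling, no filter and left-out libraries were alternatives. The code was tested on simulated data. Libraries of a genotype differed by 7.51 to 19.5 in chi-square per degree of freedom over genes with 20 or more counts, so none was counted as a repeat. Replicate numbers follow accession order. A floor of 3 counts was 0.0550 to 0.0938 CPM, for counting error only.

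Both genes and all lists were chosen with earlier results of these data known. Named besides them are paralogs, defining partners, targeted genes, list genes called, the 3 nearest tested genes on each side, and the 5 genes of highest Pearson r.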

Additional observations from a re-analysis of the deposited data

How the results depend on the processing

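The log2 fold changes of Inka2 and Prr5l against KO or control kept their size within the spread between libraries under DESeq2, edgeR with RLE, no filter on low counts, and without the 2 libraries with high Xist, although Inka2 in DKO vs KO was then -0.21. Single left-out libraries moved several values: Inka2 in TKO vs KO ran from -0.43 to -0.16 (without TKO replicate 1) and in DKO vs KO from -0.40 to -0.20 (without DKO replicate 1). Inka2 in QKO vs control ran from 0.33 (without QKO replicate 1) to 0.65 (without QKO replicate 2), and in QKO vs KO from -0.95 to -0.63. Prr5l ran from -0.056 to 0.061 in QKO vs control and from -1.17 to -1.05 in QKO vs KO. In TKO vs DKO the sign of both genes was unstable around 0: Inka2 ran from -0.13 to 0.14 with left-out libraries and was -0.081 without the libraries with high Xist, and Prr5l ran from -0.094 to 0.0069. The cause was not tested. Inka2 passed under DESeq2 and with no filter in QKO vs TKO (-0.49 and -0.50) and in QKO vs DKO (-0.48 and -0.48). Over all alternatives its adjusted p ran from 0.0106 to 1 in QKO vs TKO and from 0.00905 to 0.285 in QKO vs DKO, and without 1 library it was never under 0.0515.

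Counts of genes called moved more. DESeq2 gave 243 in KO vs control (137 in the edgeR fit), 223 in DKO vs KO (106), 83 in TKO vs DKO (17), 100 in QKO vs TKO (54) and 228 in QKO vs DKO (130). Without the filter they were 300, 336, 159, 160 and 318 in the same order. Without the libraries with high Xist they were 40 in KO vs control, 63 in DKO vs KO and 61 in TKO vs DKO. With 1 library left out they ran from 23 to 44, 42 to 122, 7 to 44, 25 to 80 and 72 to 160. No paired analysis was possible because the labels give no replicate numbers. With 2 libraries a group, the spread comes from the shared fit, and a left-out library's partner is assumed to vary like the other groups. Prr5l's low counts limit what could be detected.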
